A study of Homo sapiens with 20 samples.

Results

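The genes described here encode the nuclear subunits of the 4 respiratory chain complexes and of ATP synthase. They were chosen by gene symbol from the deposited table, with pseudogene names left out, which gave 82 genes of 60656 rows: 38 for complex I, 4 for complex II, 8 for complex III, 14 for complex IV and 18 for complex V. RNA was sequenced from 20 samples labelled as SW1990, an established line of human pancreatic cancer, and the title of the series places the line in a mouse model. The labels give 4 treatments from traditional Chinese medicine with 5 samples each: clearing Heat and removing Dampness (here heat-clearing), strengthening spleen and regulating qi-flowing (spleen-strengthening), eliminating heat by nourishing yin (yin-nourishing), and activating blood and removing stasis (blood-activating). No untreated group is among the samples analysed here, so each difference is between treatments. The labels read here state no dose, time, host or composition of a medicine. The labels do not say that replicates came from separate mice or cultures, so p-values measure only the spread between these samples.

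The respiratory chain passes electrons from NADH, through complex I, or from succinate, through complex II, to ubiquinone, then to cytochrome c through complex III and to oxygen through complex IV. Complexes I, III and IV pump protons across the inner mitochondrial membrane, and ATP synthase, complex V, uses the returning protons to make ATP. Complex II is encoded wholly in the nucleus, whereas the others join nuclear subunits with a few that mitochondrial DNA encodes. Their mRNAs come from many chromosomes and are commonly described as being expressed together.

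Library totals ran from 81.7 to 135.0 M counts (M, mega). The 5 libraries heat-clearing 01 and 02 and blood-activating 01, 08 and 09 stood apart from the rest in RN7SK, a small nuclear RNA that binds the transcription factor P-TEFb. RN7SK took 5.25 to 7.38% of their counts against 1.57 to 3.02% in the other 15, and they are called RN7SK-high below, by a share above 4%. They held 10.6 to 15.6% of counts on mitochondrially encoded mRNAs against 17.1 to 23.2% in the others. None of the spleen-strengthening or yin-nourishing libraries is RN7SK-high, so the counts for each comparison of these with the heat-clearing or blood-activating group are given with and without those 5, as are the values of the subunits named there. The titles also carry a letter, b or C, that the labels do not explain. In the blood-activating group the letter falls with RN7SK (01, 08 and 09 are b, 04 and 06 are C), so the 2 cannot be told apart there, whereas in the heat-clearing group each letter has 1 RN7SK-high library. The 6 markers of the labelled epithelial line summed to 2370 to 2780 CPM (counts per M counts) in the RN7SK-high libraries and 1770 to 2410 in the others. The 7 fibroblast markers summed to 22.5 to 67.6 (median 57.8) against 16.5 to 51.0 CPM (median 30.3), and the 13 pancreatic acinar markers to 3.01 to 60.7 (median 38.0) against 0.968 to 1010 CPM (median 3.98). COL1A1, at a mean of 29 CPM, led the fibroblast markers, with LUM next at 2.68. The 5 endothelial markers went the other way in median, at 7.62 to 18.6 (median 9.75) against 9.09 to 23.5 CPM (median 13.1). The 6 myeloid markers, led by CD68, summed to 52.5 to 86.9 (median 67.2) against 51.1 to 68.3 CPM (median 60.4). By treatment the acinar median was 53.1 CPM in blood-activating and 3.28 to 3.98 in the other groups. The part of other cells in the results was not tested.

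The 82 subunit genes together took 0.276 to 0.389% of all counts. Of them, 79 passed the filter on low counts and were tested. COX6A2 and COX7B2 had 0 counts in every library and COX8C had 22 counts in 5 libraries, so these 3 complex IV genes were not tested. In bulk RNA, fewer cells with a transcript and less of it per cell cannot be told apart.

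Levels per transcript length differed widely between subunits of the same complex. Over the 20 libraries, in CPM per kilobase of the principal transcript, the median subunit stood at 18.2 in complex I, 19.2 in II, 23.7 in III, 49.4 in IV and 51.0 in V. COX6A1, a small subunit of cytochrome c oxidase, was the highest of all at 162 ± 63.2 (SD, n = 20), and ATP5MC2, which encodes the c subunit of the rotating ring, led complex V at 133 ± 21.1. NDUFA4, grouped with complex I by its name and also described as a complex IV subunit, led its group at 87.2 ± 20.7, SDHD, a membrane anchor of complex II, led that complex at 90.7 ± 19.8, and UQCR10 led complex III at 59.1 ± 10.1. The lowest tested subunits were NDUFS6 in complex I at 1.08 ± 0.614, SDHA, the flavoprotein of complex II, at 9.69 ± 1.68, UQCRFS1, the Rieske iron-sulfur protein of complex III, at 12.3 ± 1.51, COX7A1 in complex IV at 0.510 ± 0.671 and ATP5MGL in complex V at 0.105 ± 0.134. ATP5MGL is a retrocopy with 1 exon, and the next lowest in complex V was ATP5MG at 5.73 ± 0.962. These values, and the order of the subunits, rest on the length used. With the merged length of all annotated exons COX6A1 came to 68.8, below COX6B1 at 98.5, and ATP5MC2 to 24.9, below ATP5F1C at 61.7. With the median coding transcript SDHC, the other anchor of complex II, came to 319 in place of 10.8 and was the highest of all.

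The promoters of these genes were read for letters of 3 short sites known from mitochondrial gene promoters. RefSeq's promoter table (GRCh38.p14, 250 bases before to 50 after the start) held 65 of the 82 genes. GCATGCGC, the core of the site of NRF1 (nuclear respiratory factor 1), stood on either strand in 14 of the 65 (21.5%) against 3.68% of all 27305 symbols in the table. CCGGAAGT, the site of ETS factors such as GABP, stood in 11 (16.9%) against 4.95%, and AAGATGGC, of the kind bound by YY1, in 12 (18.5%) against 3.52%. A match is a description of the letters and no evidence of binding. The 6 promoters below are shown because 3 belong to subunits that were higher in RN7SK-high libraries (COX5B, COX6A1, ATP5PD) and 3 to subunits that were lower there (UQCRQ, NDUFB4, NDUFB8), and each holds at least 1 of these sites, in capitals. They are at chr2:97645812-97646111 (forward strand), chr12:120437863-120438162 (forward strand), chr17:75046920-75047219 (reverse strand), chr5:132866392-132866691 (forward strand), chr3:120596086-120596385 (forward strand) and chr10:100529822-100530121 (reverse strand), each from 5′ to 3′ on the strand of the gene.
COX5B: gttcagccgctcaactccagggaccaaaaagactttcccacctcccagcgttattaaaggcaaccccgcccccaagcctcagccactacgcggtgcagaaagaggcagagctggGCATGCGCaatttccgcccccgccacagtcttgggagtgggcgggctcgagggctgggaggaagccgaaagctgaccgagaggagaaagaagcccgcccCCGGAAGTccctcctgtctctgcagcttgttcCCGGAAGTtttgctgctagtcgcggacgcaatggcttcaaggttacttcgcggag
COX6A1: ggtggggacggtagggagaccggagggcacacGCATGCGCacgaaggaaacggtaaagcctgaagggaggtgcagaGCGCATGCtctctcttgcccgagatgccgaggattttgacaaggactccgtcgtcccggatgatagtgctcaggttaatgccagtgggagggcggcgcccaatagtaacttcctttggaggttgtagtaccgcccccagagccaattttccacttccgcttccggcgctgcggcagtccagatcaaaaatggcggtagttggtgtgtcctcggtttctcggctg
ATP5PD: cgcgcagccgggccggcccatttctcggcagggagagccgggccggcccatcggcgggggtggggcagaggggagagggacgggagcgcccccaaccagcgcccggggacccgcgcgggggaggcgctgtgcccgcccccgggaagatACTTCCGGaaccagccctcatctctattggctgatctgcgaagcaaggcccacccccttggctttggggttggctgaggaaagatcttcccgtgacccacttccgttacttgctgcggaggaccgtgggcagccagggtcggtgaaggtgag
UQCRQ: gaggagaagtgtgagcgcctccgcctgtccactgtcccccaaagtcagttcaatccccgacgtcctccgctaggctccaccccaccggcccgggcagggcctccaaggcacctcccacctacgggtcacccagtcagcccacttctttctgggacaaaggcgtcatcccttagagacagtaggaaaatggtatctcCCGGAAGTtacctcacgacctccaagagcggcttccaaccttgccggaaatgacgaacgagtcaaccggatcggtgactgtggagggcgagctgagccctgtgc
NDUFB4: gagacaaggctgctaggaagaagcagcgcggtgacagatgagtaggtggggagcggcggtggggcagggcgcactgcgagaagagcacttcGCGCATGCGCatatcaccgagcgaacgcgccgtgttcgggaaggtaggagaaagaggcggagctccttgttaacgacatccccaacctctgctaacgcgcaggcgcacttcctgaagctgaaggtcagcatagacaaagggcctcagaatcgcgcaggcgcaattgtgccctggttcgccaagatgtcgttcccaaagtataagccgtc
NDUFB8: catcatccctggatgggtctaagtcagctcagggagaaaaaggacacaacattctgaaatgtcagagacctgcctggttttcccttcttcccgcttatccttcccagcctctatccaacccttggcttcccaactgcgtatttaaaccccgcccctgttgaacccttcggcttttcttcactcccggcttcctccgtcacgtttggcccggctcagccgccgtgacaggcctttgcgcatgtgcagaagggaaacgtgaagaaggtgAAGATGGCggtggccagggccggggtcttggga
COX5B holds 1 NRF1 match and 2 ETS matches, COX6A1 holds 2 NRF1 matches, and ATP5PD and UQCRQ hold 1 ETS match each. The 2 NRF1 matches of NDUFB4 overlap, 1 on each strand, and NDUFB8 holds 1 YY1 match. Of the matched genes that were higher in RN7SK-high libraries, 6 of 18 held the NRF1 letters and 5 the ETS letters. Of those that were lower, 2 of 15 held the first and 2 the second, and of those in neither class 6 of 29 and 4. The YY1 letters stood in 2 of the 18, 2 of the 15 and 8 of the 29.

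No subunit passed edgeR's test of a difference among the 4 treatments or between any pair, and DESeq2 and voom called some. In the test over all 4 treatments, edgeR's quasi-likelihood test with Benjamini-Hochberg adjustment called 0 of the 79 at an adjusted p under 0.05, as it did over all rows (0%). At an unadjusted p under 0.05 there were 27 of 79 subunits, where the share of all rows was 15.4%. DESeq2 called 12 subunits and voom 19, against 5.08% and 8.47% of all rows. The smallest p-values were those of COX5B, NDUFB9, ATP5F1D, ATP5F1B, COX6A1, NDUFA4, NDUFB2 and ATP5PD, in that order, all with an adjusted p of 0.172 in edgeR. Without the 5 RN7SK-high libraries edgeR called 0 subunits, and 5 had an unadjusted p under 0.05, against 4.46% of all rows.

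**Figure D1:**
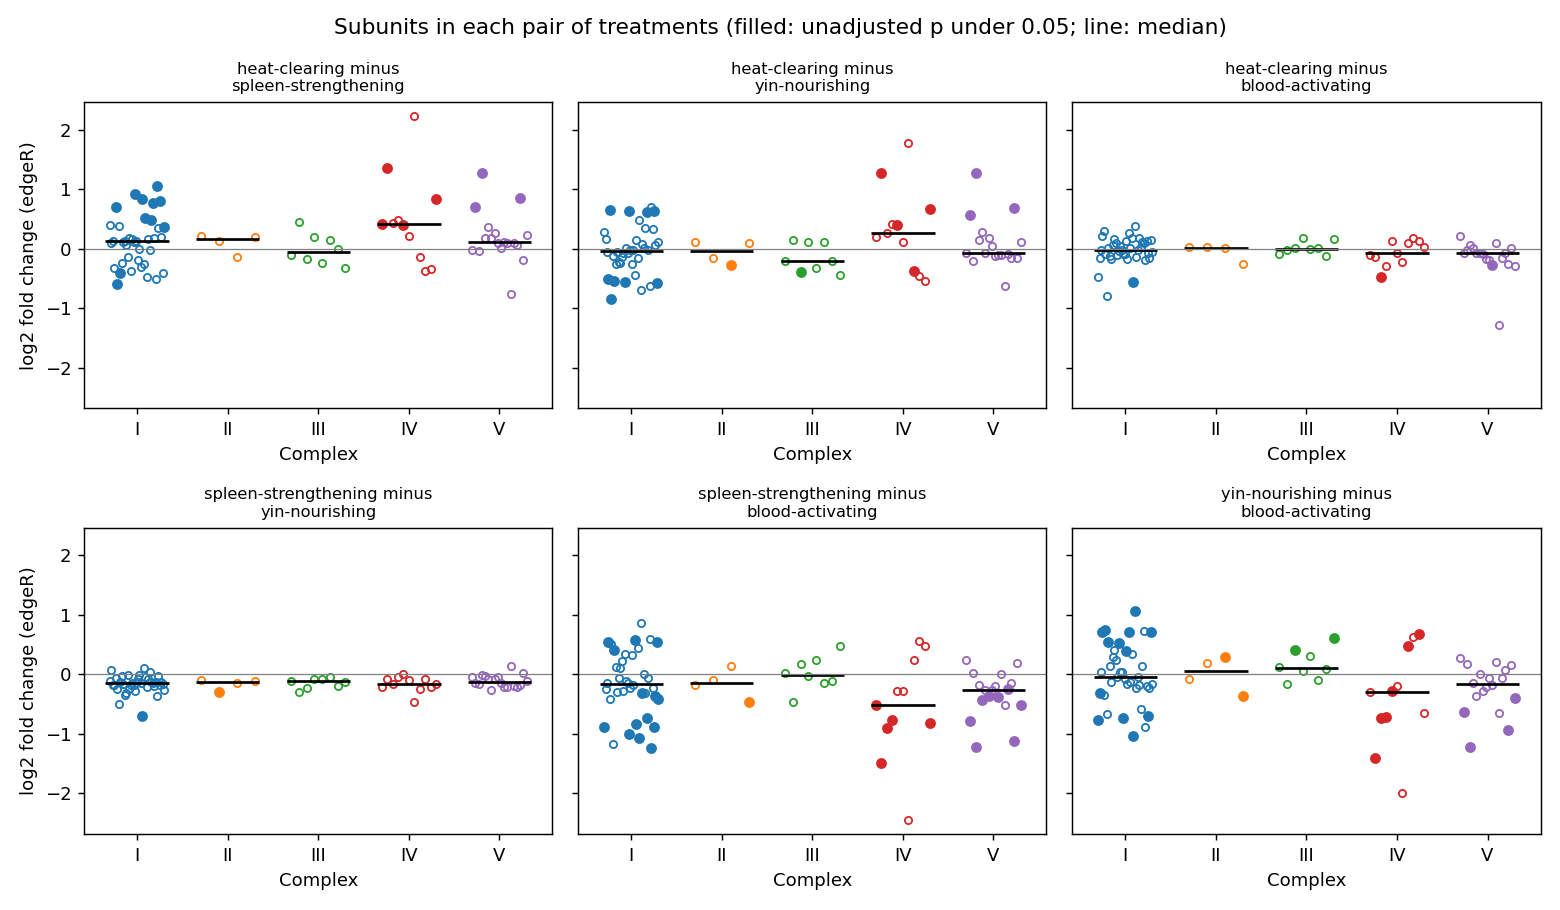
Log2 fold change from edgeR (y axis, first treatment minus second) of the 79 tested subunits by complex (x axis) in each of the 6 pairs of treatments. Points are genes, filled where the unadjusted p was under 0.05, and lines are medians; in spleen-strengthening minus blood-activating 24 of the filled points lie below 0 and 4 above, and none passed adjustment.

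The pair of spleen-strengthening and blood-activating groups had the most subunits at an unadjusted p under 0.05, 28 of 79. edgeR called 0 of 79 (0% of all rows), with 4 higher and 24 lower in the spleen-strengthening group at an unadjusted p under 0.05, against 8.28% and 12.2% of all rows. DESeq2 called 14, all lower, against 7.80% of all rows, and voom called 34, of which 13 were higher and 21 lower, against 19.8%. The median log2 fold change was -0.20 over the subunits and -0.04 over all rows. For 7 subunits every spleen-strengthening library lay below every blood-activating one, against 2.49% of all rows, and for 0 it lay above, against 1.94%. Leaving out blood-activating 04 gave 12 edgeR calls (7.81% of all rows) and leaving out heat-clearing 03 gave 3 (1.21%). Neither library is RN7SK-high. Leaving out blood-activating 04 raised the share of RN7SK-high libraries in its group, whereas heat-clearing 03 belongs to neither group of this pair. Why the calls changed was not tested. With the title letter as a term edgeR called 0 and 42 subunits had an unadjusted p under 0.05, against 21.8% of all rows.

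COX5B, which encodes a peripheral subunit of complex IV that faces the matrix, stood at 6.16, 8.34, 6.84, 8.66 and 7.25 CPM in the spleen-strengthening libraries and at 27.3, 10.9, 12.47, 21.1 and 32.9 in the blood-activating ones. The groups did not overlap, and the 3 RN7SK-high libraries (01, 08 and 09) were the highest (log2 fold change -1.49, SE 0.37, edgeR adjusted p = 0.0835). In the heat-clearing libraries it stood at 34.96, 31.04, 9.56, 9.64 and 9.71 CPM, with the first pair, both RN7SK-high, far above the rest, and in the yin-nourishing ones at 10.9, 7.42, 7.94, 6.01 and 7.14. COX5B was also lower in the yin-nourishing than in the blood-activating libraries without overlap (log2 fold change -1.41, SE 0.37, edgeR adjusted p = 0.141), and every heat-clearing library lay above every spleen-strengthening one (log2 fold change 1.35, SE 0.37, edgeR adjusted p = 0.323). Without the RN7SK-high libraries, which leaves 2 in the blood-activating group, the log2 fold change between spleen-strengthening and blood-activating was -0.64 (SE 0.22, edgeR adjusted p = 0.72), smaller than in all 20 libraries. It was -0.57 between yin-nourishing and blood-activating and 0.37 between heat-clearing and spleen-strengthening.

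NDUFB9, an accessory subunit of the membrane arm of complex I, stood at 19.3, 25.3, 19.3, 33.48 and 20.52 CPM in the spleen-strengthening libraries and 62.3, 37.3, 31.8, 49.51 and 67.6 in the blood-activating ones. Here a single spleen-strengthening library, 07, reached above the lowest blood-activating one (log2 fold change -1.08, SE 0.25, edgeR adjusted p = 0.0835). The yin-nourishing libraries ran from 18.50 to 32.6 CPM and the heat-clearing ones from 19.2 to 47.9, the latter with both RN7SK-high libraries on top. Without the RN7SK-high libraries the log2 fold change between spleen-strengthening and blood-activating was -0.54 (SE 0.22, edgeR adjusted p = 0.725).

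COX6A1 stood at 58.7, 81.4, 65.6, 70.7 and 69.9 CPM in the spleen-strengthening libraries and 189, 85.04, 74.3, 133 and 168 in the blood-activating ones. The 2 blood-activating libraries that are not RN7SK-high, 04 and 06, lay among or just above the spleen-strengthening values (log2 fold change -0.91, SE 0.22, edgeR adjusted p = 0.0835). Without RN7SK-high libraries the log2 fold change was -0.19 (SE 0.12, edgeR adjusted p = 0.852). In the heat-clearing group COX6A1 ran from 62.6 to 132 CPM and in the yin-nourishing group from 72.55 to 82.9.

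In complex V, ATP5F1B, the catalytic beta subunit, stood at 76.8, 96.1, 83.2, 109.9 and 74.3 CPM in the spleen-strengthening libraries and 179, 122, 119, 147 and 187 in the blood-activating ones, without overlap (log2 fold change -0.78, SE 0.21, edgeR adjusted p = 0.0933). It was below the blood-activating group in every yin-nourishing library as well, at 104, 87.1, 119, 94.4 and 82.00 CPM (log2 fold change -0.63, SE 0.21, edgeR adjusted p = 0.145). Without RN7SK-high libraries the 2 differences were -0.45 (SE 0.14, edgeR adjusted p = 0.72) and -0.31 (SE 0.15, edgeR adjusted p = 0.827) on the log2 scale. ATP5F1A, the alpha subunit that alternates with beta in the same catalytic head, went the other way in group mean only. It stood at 64.5 ± 5.84 CPM in spleen-strengthening and 54.9 ± 23.7 in blood-activating (SD, n = 5; DESeq2 log2 fold change 0.24, adjusted p = 0.462). The blood-activating libraries had 39.96, 88.47, 70.6, 32.2 and 43.1 CPM, where 01, 08 and 09 were the lowest of all 20. The others, 04 and 06, lay above every spleen-strengthening library (55.5 to 69.9 CPM), the same direction as ATP5F1B. Without RN7SK-high libraries the log2 fold change of ATP5F1A between yin-nourishing and blood-activating was -0.25. ATP5PD, a subunit of the stator stalk, stood at 27.52, 34.3, 29.49, 32.4 and 33.9 CPM in the spleen-strengthening and 92.04, 37.97, 35.6, 81.1 and 94.6 in the blood-activating libraries, again without overlap (log2 fold change -1.11, SE 0.30, edgeR adjusted p = 0.0933). Its blood-activating libraries 04 and 06 lay just above the spleen-strengthening values, and without RN7SK-high libraries the log2 fold change was -0.21 (SE 0.13, edgeR adjusted p = 0.843). With the GC slope of each library as a term its value turned to 0.0142.

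Other subunits whose spleen-strengthening libraries all lay below the blood-activating ones were NDUFB2 (log2 fold change -1.01, edgeR adjusted p = 0.0933), NDUFS8 (-0.89, adjusted p = 0.103), NDUFV1 (-0.36, adjusted p = 0.157) and NDUFA13 (-0.41, adjusted p = 0.366). NDUFV1 carries the site where NADH is oxidised, and NDUFS8 holds iron-sulfur clusters on the path to ubiquinone. The 2 subunits with the smallest p among those higher in the spleen-strengthening group were NDUFA4, at 207 ± 33.2 against 155 ± 23.1 CPM (SD, n = 5; log2 fold change 0.42, SE 0.16, edgeR adjusted p = 0.134), and NDUFA12, an accessory subunit of the matrix arm, at 22.6 ± 4.11 against 15.6 ± 3.86 (log2 fold change 0.54, SE 0.20, edgeR adjusted p = 0.134). Without RN7SK-high libraries the log2 fold changes were -0.25 for NDUFB2, -0.35 for NDUFS8, -0.17 for NDUFV1, -0.44 for NDUFA13, 0.25 for NDUFA4 and 0.25 for NDUFA12. With the GC slope of each library as a term NDUFS8 turned to 0.0425 and NDUFV1 to 0.0148. Without the 5 RN7SK-high libraries 0 subunits were called by edgeR in this pair, with 1 higher and 11 lower at an unadjusted p under 0.05, against 2.50% and 4.07% of all rows. Of the 24 subunits lower at that level in all 20 libraries, 21 kept the direction and 22 were smaller in size, and their median log2 fold change went from -0.77 to -0.23.

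Between the yin-nourishing and blood-activating groups, subunits lay in both directions. edgeR called 0 of 79 (0% of all rows). At an unadjusted p under 0.05 there were 13 higher and 14 lower in the yin-nourishing group, against 7.74% and 10.5% of all rows. DESeq2 called 12 subunits, 6 each way, against 4.26% of all rows, and voom 28, of which 15 were higher, against 16.8%. In 4 subunits every yin-nourishing library lay above the blood-activating ones (2.26% of all rows), and in 3 below (1.86%). Leaving out blood-activating 04, which is not RN7SK-high, raised the RN7SK-high share of its group and gave 3 edgeR calls (1.41% of all rows).

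COX7A2, the widespread form of a small complex IV subunit, stood at 52.6, 64.9, 60.1, 71.9 and 72.4 CPM in the yin-nourishing libraries and 46.9, 52.53, 50.3, 37.1 and 45.1 in the blood-activating ones, with a narrow gap between the groups (log2 fold change 0.47, SE 0.12, edgeR adjusted p = 0.141). NDUFA12 was the other with the smallest p among those higher, at 25.6 ± 5.41 against 15.6 ± 3.86 CPM (SD, n = 5; log2 fold change 0.72, SE 0.20, edgeR adjusted p = 0.141). NDUFV2, an iron-sulfur subunit next to the NADH site, NDUFC1 and NDUFA7 also had every yin-nourishing library above the blood-activating ones, with log2 fold changes of 0.71 (edgeR adjusted p = 0.141), 1.07 (adjusted p = 0.226) and 0.28 (adjusted p = 0.419). NDUFB9 was lower in the yin-nourishing group (log2 fold change -1.03, SE 0.25, edgeR adjusted p = 0.141), and NDUFA10 was lower without overlap (log2 fold change -0.31, SE 0.12, edgeR adjusted p = 0.176). Without the RN7SK-high libraries 0 were called, with 6 higher and 4 lower at an unadjusted p under 0.05, against 2.67% and 3.32% of all rows. COX7A2 was then at a log2 fold change of 0.33 (SE 0.14, edgeR adjusted p = 0.821). The values then were 0.43 for NDUFA12, 0.33 for NDUFV2, 0.26 for NDUFC1, 0.25 for NDUFA7, -0.51 for NDUFB9 and -0.38 for NDUFA10.

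The heat-clearing group, with 2 RN7SK-high libraries, was set against the 2 groups that have none. Against spleen-strengthening, edgeR called 0 of 79 subunits (0.00807% of all rows) and DESeq2 and voom 0 as well (0.270% and 0.0121%), with 16 higher and 2 lower in the heat-clearing group at an unadjusted p under 0.05, against 8.44% and 3.03%. Next to COX5B, ATP5F1B had the smallest p among those higher, at 143 ± 60.1 against 88.1 ± 14.8 CPM (SD, n = 5; log2 fold change 0.70, SE 0.21, edgeR adjusted p = 0.323). The 2 lower were NDUFA4 (log2 fold change -0.42, SE 0.16, edgeR adjusted p = 0.331) and NDUFA2 (log2 fold change -0.60, SE 0.26, edgeR adjusted p = 0.376), an accessory subunit of the matrix arm. For 3 subunits, COX5B, NDUFB2 and NDUFS6, the heat-clearing libraries all lay above (0.799% of all rows), and for 0 below (0.460%). Without RN7SK-high libraries 1 subunit was higher and 0 lower at an unadjusted p under 0.05 (2.94% and 1.51% of all rows), and the log2 fold changes were 0.19 for ATP5F1B, -0.22 for NDUFA4, -0.22 for NDUFA2, 0.30 for NDUFB2 and 0.76 for NDUFS6. With the title letter as a term edgeR called 0 subunits and 31 had an unadjusted p under 0.05, against 13.3% of all rows.

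Against yin-nourishing, edgeR, DESeq2 and voom each called 0 subunits, against 0%, 0.129% and 0% of all rows. At an unadjusted p under 0.05, 10 were higher and 8 lower in the heat-clearing group, against 7.07% and 3.20%. COX5B (log2 fold change 1.27, SE 0.37, edgeR adjusted p = 0.456) and ATP5F1D (log2 fold change 1.27, SE 0.39, edgeR adjusted p = 0.456), the delta subunit of the central stalk, had the smallest p among those higher, and NDUFA4 (log2 fold change -0.55, SE 0.16, edgeR adjusted p = 0.456) and NDUFA2 (log2 fold change -0.84, SE 0.26, edgeR adjusted p = 0.456) among those lower. COX6B2 lay above in every heat-clearing library (0.738% of all rows), and UQCRB and COX7C below (0.424%). Without RN7SK-high libraries 1 was higher and 5 lower (2.94% and 1.42% of all rows), and NDUFA2 was then at -0.45 (SE 0.17, edgeR adjusted p = 1). The values of COX5B, ATP5F1D, NDUFA4, COX6B2, UQCRB and COX7C were then 0.30, 0.51, -0.35, 0.29, -0.28 and -0.21 on the log2 scale.

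The heat-clearing and blood-activating groups both hold RN7SK-high libraries. edgeR, DESeq2 and voom called 0 subunits, against 0%, 0.0403% and 0% of all rows, and at an unadjusted p under 0.05 there were 0 higher and 3 lower in the heat-clearing group, against 0.795% and 1.06%. The 3 were NDUFB9 (log2 fold change -0.56, SE 0.25, edgeR adjusted p = 1), ATP5MF, a subunit of the membrane part of ATP synthase (log2 fold change -0.28, SE 0.13, edgeR adjusted p = 1), and COX6A1 (log2 fold change -0.48, SE 0.22, edgeR adjusted p = 1). The smallest p among those higher belonged to NDUFA13 (log2 fold change 0.29) and NDUFB6 (0.26), both with an adjusted p of 1 in edgeR. In no subunit did the 2 groups lie apart, against 0.182% of all rows above and 0.307% below.

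The spleen-strengthening and yin-nourishing groups hold no RN7SK-high library, and between them the subunits lay small distances apart, nearly all on the same side. The fitted value was lower in the spleen-strengthening group for 73 of the 79: 35 of 38 in complex I, 4 of 4 in II, 8 of 8 in III, 10 of 11 in IV and 16 of 18 in V. The median log2 fold change was -0.14 over the subunits and 0.0015 over all rows, and with the 5 RN7SK-high libraries out of the fit it was -0.14 as well. Genes of a library are not independent, so the count of 73 is that of these 10 libraries and not of 79 tests. The median subunit, relative to its mean over all 20 libraries, stood on the log2 scale at -0.22, 0.01, -0.13, -0.08 and -0.06 in spleen-strengthening 02, 05, 06, 07 and 08 and at 0.03, -0.01, 0.06, 0.08 and 0.07 in yin-nourishing 01, 04, 05, 07 and 10. Spleen-strengthening 05 thus lay within the yin-nourishing range, and the other 4 below it.

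By single genes this pair gave no call. edgeR, DESeq2 and voom called 0 subunits, against 0%, 0.121% and 0.00403% of all rows, with 0 higher and 2 lower at an unadjusted p under 0.05, against 2.66% and 2.05%. NDUFB7, an accessory subunit on the intermembrane side of complex I, stood at 3.36, 5.66, 2.65, 4.19 and 6.10 CPM in the spleen-strengthening and 5.94, 8.44, 7.97, 6.78 and 6.43 in the yin-nourishing libraries, overlapping in a single spleen-strengthening library, 08 (log2 fold change -0.69, SE 0.27, edgeR adjusted p = 0.889). SDHB, the iron-sulfur subunit of complex II, stood at 25.6, 30.03, 27.6, 33.8 and 28.2 CPM against 36.1, 30.3, 37.03, 34.48 and 39.52, also overlapping (log2 fold change -0.29, SE 0.13, edgeR adjusted p = 0.966). COX7C was the subunit whose groups lay wholly apart, below in spleen-strengthening (0.351% of all rows, and 0 above against 0.420%), with a log2 fold change of -0.21 and an edgeR adjusted p of 1. Among those higher the smallest p belonged to NDUFA10 (0.06, edgeR adjusted p = 1) and NDUFS1 (0.04, adjusted p = 1), the largest core subunit of complex I. Without the RN7SK-high libraries in the fit 0 were higher and 6 lower (3.64% and 3.18% of all rows).

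**Figure D2:**
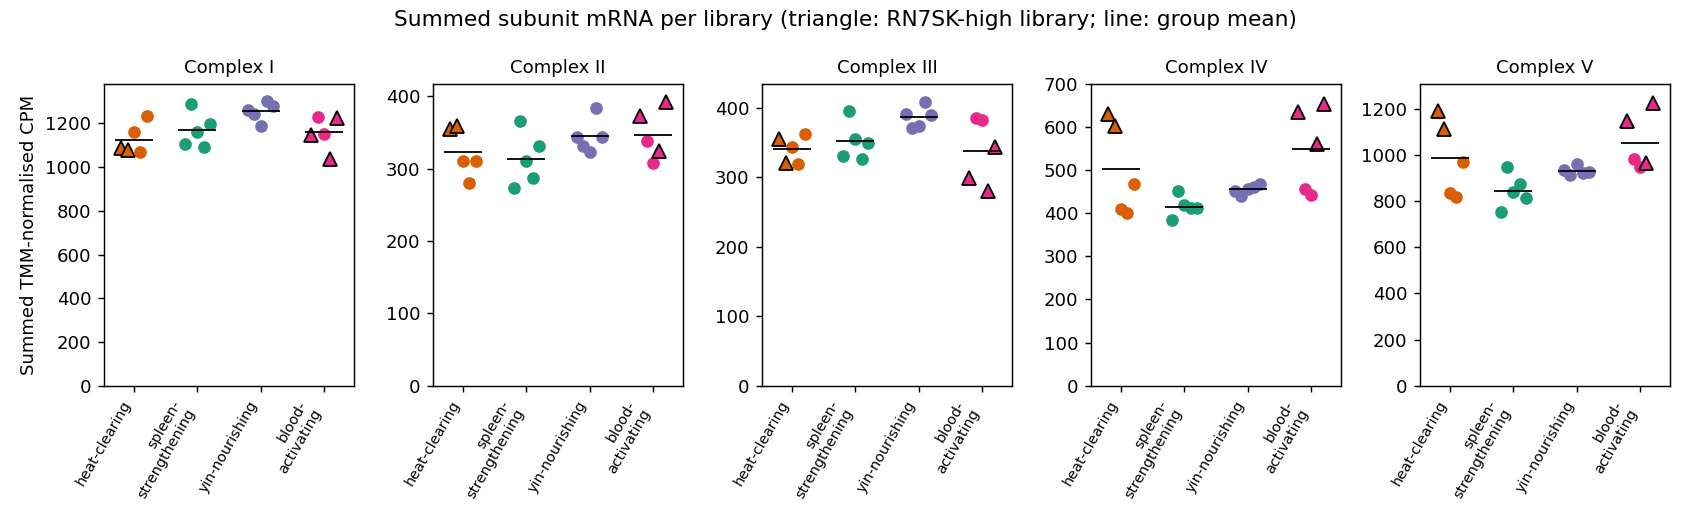
Summed level of the subunits of each complex in TMM-normalised CPM (y axis, from 0) in each library, by treatment (x axis). Triangles are RN7SK-high libraries, circles the others and lines group means; the complex IV sums of the 5 triangles, 559 to 653, lie above all 15 circles, 384 to 468, with NDUFA4 counted in complex I by its name.

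Summed over a complex as grouped by gene name, the libraries separated by RN7SK in complex IV. Its subunits summed to 559 to 653 CPM in the 5 RN7SK-high libraries and to 384 to 468 in the other 15. The sum weighs abundant subunits most and is no shift of every subunit. It leaves out NDUFA4, which is also described as a complex IV subunit and is counted here in complex I. NDUFA4 went the other way, with 117 to 152 CPM in the RN7SK-high libraries and 148 to 252 in the others. The separation is therefore that of the grouping by name, and it was not examined with NDUFA4 moved to complex IV. In the same 2 sets of libraries COX6A1 ran from 118 to 189 against 58.7 to 85.0 CPM. COX6B1 ran from 146 to 168 against 54.8 to 81.1 CPM, and COX8A from 44.9 to 87.7 against 22.8 to 33.8 CPM. Of the 11 tested complex IV subunits, 7 were above within both the heat-clearing and blood-activating groups, 3 below and 1 neither. Complex V came to 967 to 1224 against 752 to 982, overlapping narrowly, and complex II to 325 to 392 against 273 to 384. Complex III was lower in value, 279.9 to 354 against 319 to 407, and complex I overlapped widely, 1036 to 1226 against 1068 to 1303. By treatment, the complex IV sum was 502 ± 108 CPM in heat-clearing, 415 ± 23.6 in spleen-strengthening, 455 ± 10.4 in yin-nourishing and 549 ± 98.2 in blood-activating (SD, n = 5). Without RN7SK-high libraries the heat-clearing mean was 425 over 3 libraries and the blood-activating one 449 over 2.

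Within a complex the subunits did not move as 1 block in the RN7SK-high libraries. In both the heat-clearing group (2 libraries against 3) and the blood-activating group (3 against 2), 24 of 79 subunits had every RN7SK-high library above the others, and 18 had every one below, against 12.3% and 10% of all rows. The counts above and below were 9 and 9 in complex I, 1 and 0 in II, 1 and 4 in III, 7 and 3 in IV, and 6 and 2 in V. Against all 15 other libraries, 19 subunits lay above and 12 below (7.18% and 5.39% of all rows). The 5 libraries were set by their RN7SK share and not by treatment, so no test goes with these counts, and what sets the libraries apart was not tested.

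**Figure D3:**
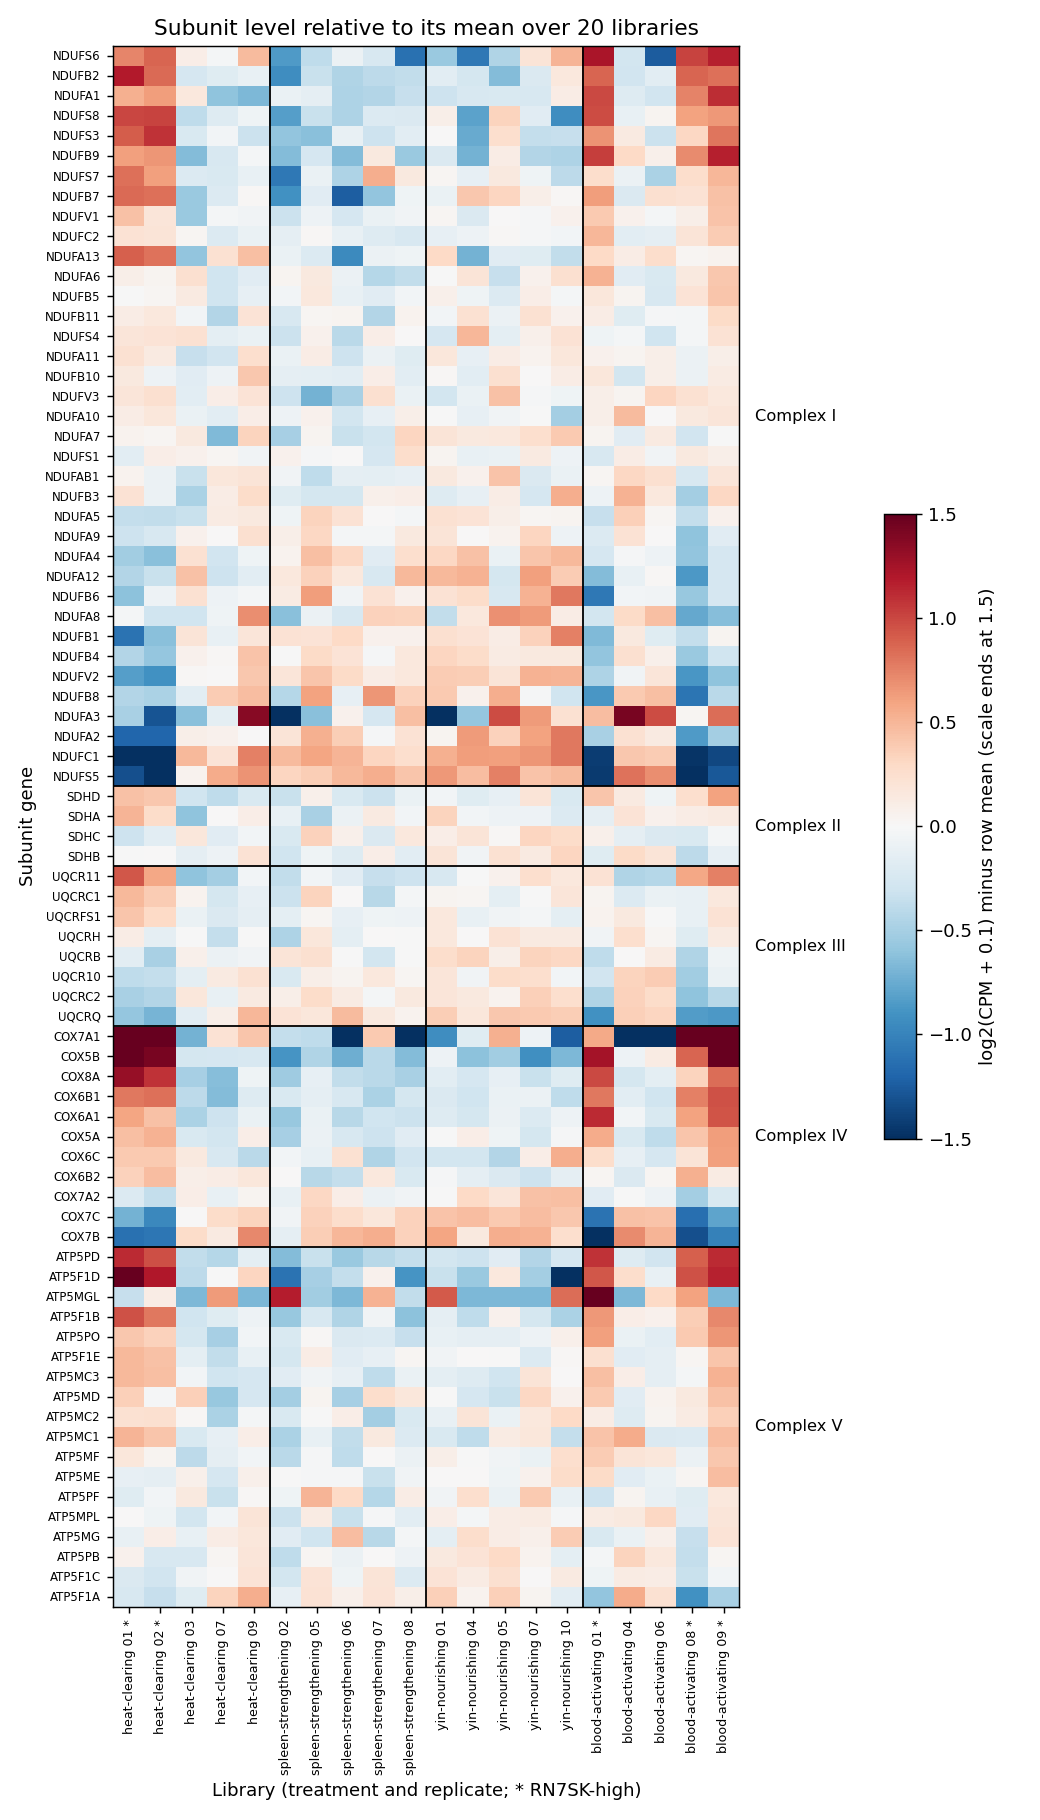
Level of 78 of the 79 tested subunits (rows, by complex, ordered by the difference of RN7SK-high from other libraries) in each library (columns, by treatment, RN7SK-high starred). Colour is log2(CPM + 0.1) minus the row mean, with the scale ending at 1.5; the 5 starred columns are red at the top and blue at the bottom of most complexes, with 24 subunits above and 18 below in both groups.

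In complex I the steepest differences were downward. NDUFS5, an accessory subunit of the intermembrane side, stood at 8.34, 5.20, 21.7, 30.8 and 33.6 CPM in heat-clearing 01, 02, 03, 07 and 09 and at 7.66, 36.9, 34.2, 6.503 and 8.60 in blood-activating 01, 04, 06, 08 and 09. In the spleen-strengthening and yin-nourishing libraries it ran from 26.2 to 30.53 and 28.3 to 35.49 CPM, so all 15 other libraries were above 20 CPM and the 5 RN7SK-high ones below 9 (mean difference -2.16 on the log2 scale). NDUFC1, a small membrane subunit, had 9.92 to 13.03 CPM in the 5 RN7SK-high libraries and 38.9 to 58.7 in the other 15 (-1.995).

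The nuclear core subunits of complex I, which carry its electron path, lay on both sides. NDUFS8 had 17.99 to 23.9 CPM in the 5 RN7SK-high libraries and 6.13 to 14.8 in the other 15, NDUFS3 5.504 to 9.45 against 2.57 to 5.28 CPM, and NDUFV1 31.1 to 39.8 against 19.9 to 30.6 CPM. NDUFS7, with 10.4 to 15.47 against 4.06 to 12.7 CPM, overlapped the other treatments but not its own groups. NDUFV2, the partner of NDUFV1 at the NADH site, was below, with 18.6 to 25.4 against 33.9 to 50.4 CPM, and NDUFS1 (-0.03) was neither. Among accessory subunits, NDUFS6 (1.35) and NDUFB2 (1.15) had the largest positive differences, and NDUFA2 (-1.03) and NDUFB8 (-0.96) were negative, all in mean log2 difference.

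In complex II, SDHD was above with 152 to 195 CPM in the 5 RN7SK-high libraries and 97.8 to 146 in the other 15, while SDHC, the other anchor, overlapped with 117 to 153 against 124 to 184 CPM. SDHA (0.24) and SDHB (-0.24) were neither. In complex III, UQCRC2, a core protein, was below with 41.9 to 47.6 against 59.02 to 81.9 CPM, and its partner UQCRC1 was neither, with 40.6 to 61.6 against 33.1 to 55.3 CPM. UQCRQ, whose promoter is shown above, was below with 12.52 to 15.8 against 21.1 to 33.4 CPM, and UQCR10 was below within both groups with 37.2 to 49.9 against 45.7 to 69.8 CPM. UQCRFS1 overlapped with 39.1 to 56.46 against 36.4 to 47.2 CPM, and UQCR11 was the complex III subunit above, with 22.6 to 37.3 against 12.8 to 23.2 CPM.

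Complex IV held steep differences in both directions. COX5B (1.48), COX8A (1.26), COX6B1 (1.14), COX6A1 (0.92) and COX5A (0.73) were above all 15 other libraries in mean log2 difference. COX7B stood at 9.07, 9.28, 23.9, 21.8 and 32.6 CPM in the heat-clearing and 6.98, 32.6, 28.2, 7.89 and 9.78 in the blood-activating libraries, with each RN7SK-high library under 10 CPM. The other 15 ran from 18.0 to 32.6 CPM, and COX7C (25.8 to 34.6 CPM in the 5 RN7SK-high libraries and 54.8 to 78.3 in the other 15) and COX7A2 (-0.28) were below as well. In complex V, ATP5PD had 81.1 to 94.6 against 27.52 to 39.2 CPM, ATP5F1D 13.8 to 23.1 against 1.76 to 8.99 CPM, and ATP5F1B 147 to 221 against 74.3 to 122 CPM. ATP5F1A was the one below all 15, with 32.2 to 51.1 against 53.1 to 88.47 CPM, so the alpha and beta chains of the same head lay on opposite sides.

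**Figure D4:**
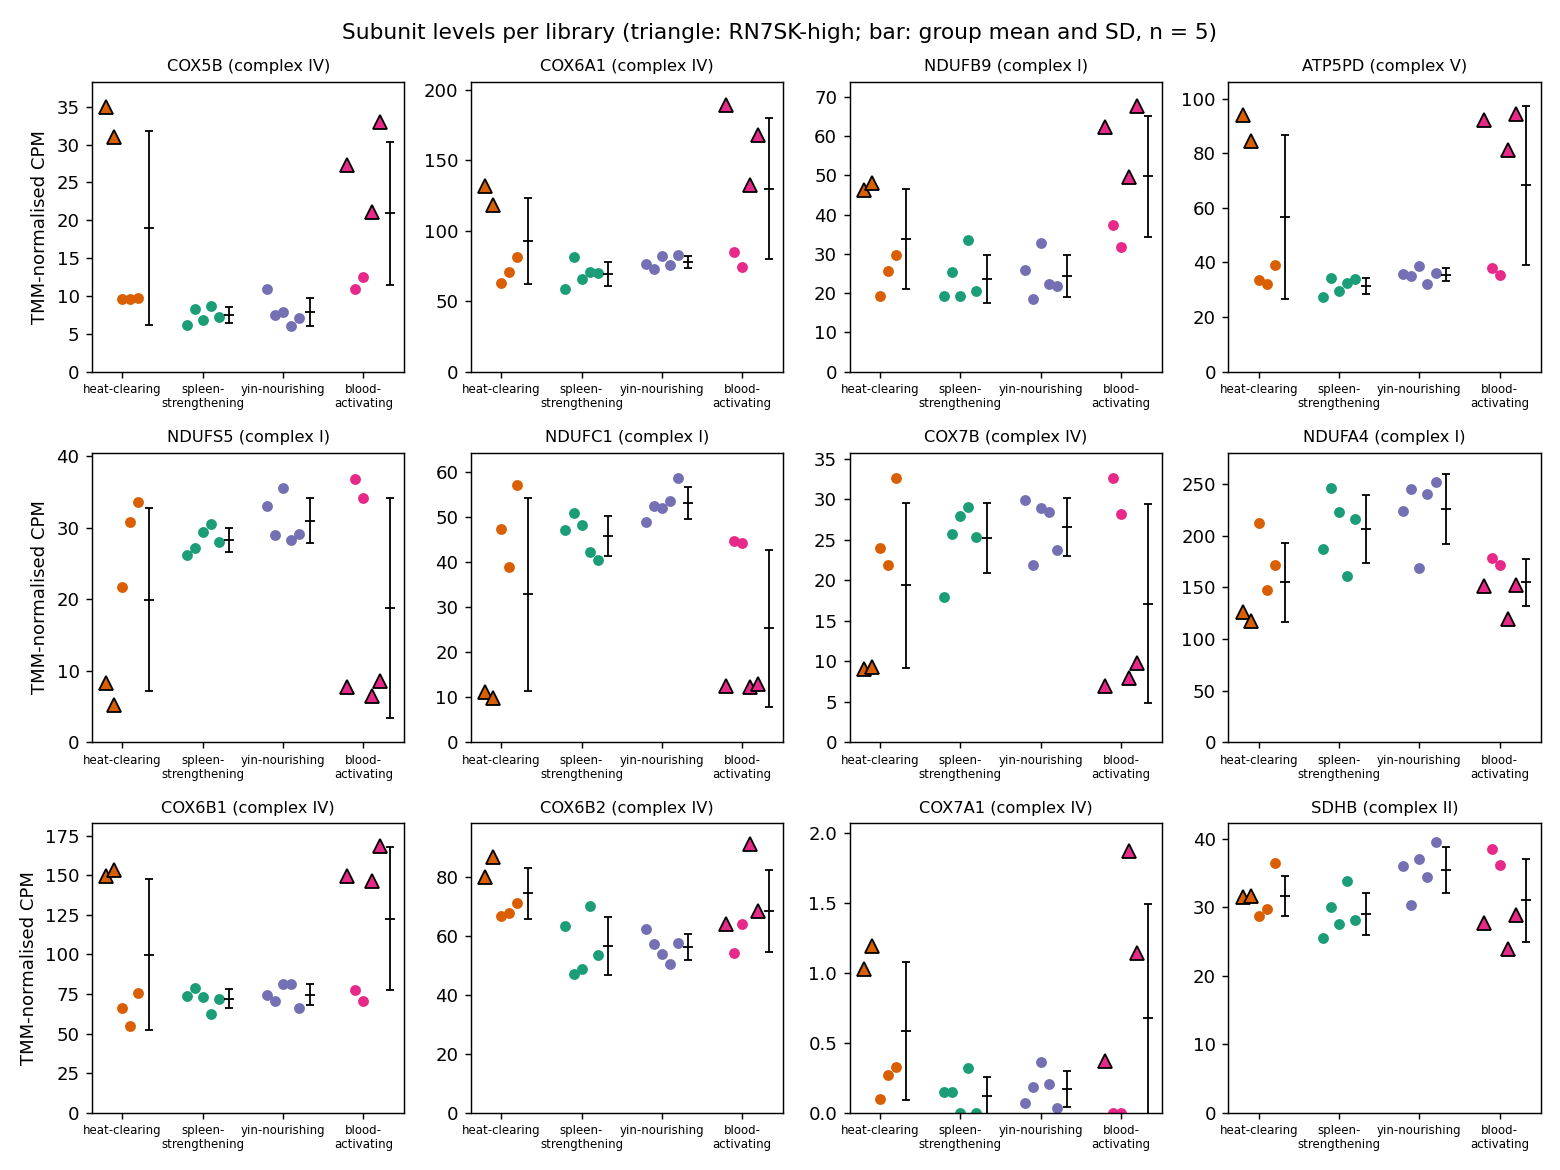
TMM-normalised CPM (y axis, from 0) of 12 subunits in each library by treatment (x axis). Triangles are RN7SK-high libraries, circles the others, and bars give the group mean and SD (n = 5); triangles are on top for COX5B, COX6A1, NDUFB9, ATP5PD and COX6B1 and at the bottom for NDUFS5, NDUFC1 and COX7B.

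The GC content of the transcript moved with these classes. The median GC of the principal transcript was 53.8% in the 24 subunits above, 46.2% in the 18 below and 48.6% in the 37 others, with ranges that overlap (38.7 to 69.3%, 38.3 to 54.7% and 36.4 to 65.0%). Across the 79 subunits the mean log2 difference had a Pearson r of 0.39 and a Spearman rho of 0.41 with GC, as a description over genes that share the same 20 libraries. Over all 23251 rows with GC they were 0.36 and 0.42, over 15197 protein-coding rows 0.47 and 0.54, and over the 6817 of these with a mean log2 CPM of 4 or more both were 0.60. The SD of the difference was 0.871 in the subunits and 0.824, 0.715 and 0.475 in those 3 sets of rows. ATP5PD (45.1% GC, above) and UQCRQ (53.1% GC, below) went against the direction of the trend. The median transcript length was 861.5 bases above and 788.5 below. The part of GC content or length in these differences was not tested.

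**Figure D5:**
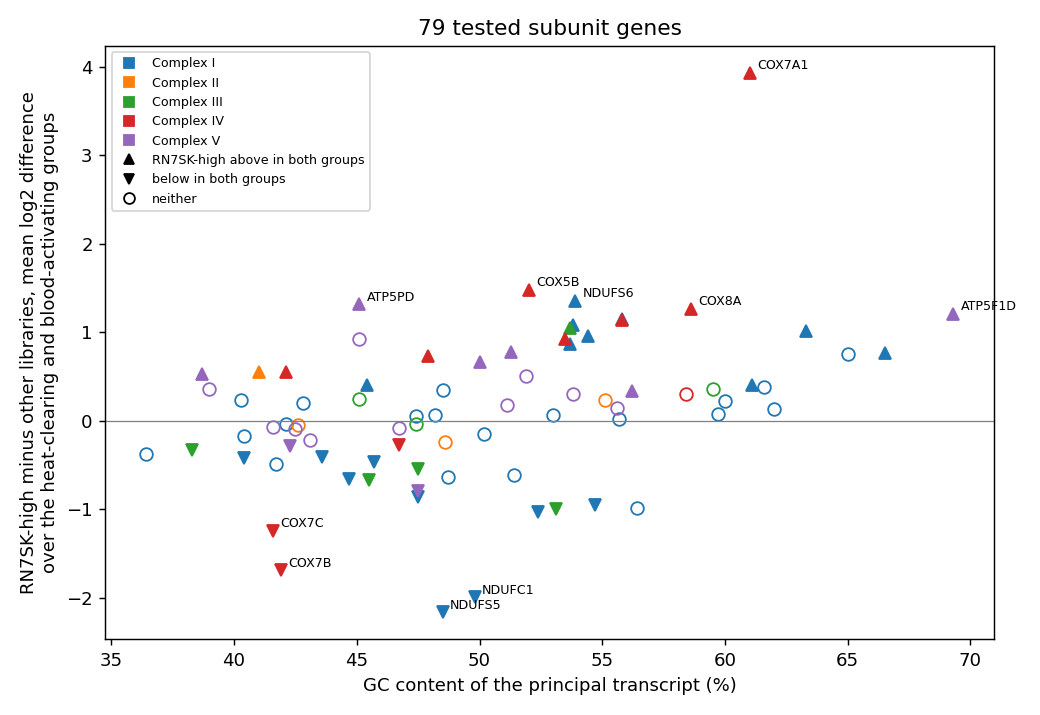
Mean log2 difference of RN7SK-high from other libraries over the heat-clearing and blood-activating groups (y axis) against GC content of the principal transcript in % (x axis) for the 79 tested subunits. Colour gives the complex, upward triangles the 24 above, downward triangles the 18 below and open circles the 37 others; the points rise loosely with GC (Spearman rho 0.41), with COX7A1 at the top.

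Several complex IV subunits have a second gene that is known from certain tissues. COX6B2, known mainly from testis, was present in all 20 libraries with 126481 counts in total and made up 28.9 to 55.3% (median 41.8%) of the counts of COX6B1 and COX6B2 together. That share takes no account of length: the principal transcript has 1663 bases in COX6B2 and 667 in COX6B1. Per kilobase of it COX6B2 stood at 38.4 CPM and COX6B1 at 138, so the share of transcripts is smaller than that of counts. COX6B2 stood at 79.8, 86.7, 66.6, 67.8 and 71.03 CPM in heat-clearing, 63.4, 46.96, 48.9, 70.00 and 53.50 in spleen-strengthening, 62.2, 57.1, 53.96, 50.6 and 57.47 in yin-nourishing and 63.9, 54.1, 63.97, 91.3 and 68.4 in blood-activating libraries. Every heat-clearing library lay above every yin-nourishing one (log2 fold change 0.40, SE 0.13, edgeR adjusted p = 0.456), and RN7SK-high libraries overlapped the others. The 6 testis germ cell markers summed to 0.0224 to 1.31 CPM, so COX6B2 lay far above their sum in every library. COX6B2 (chr19:55349306-55354814, GRCh38) shares 1178 exonic bases with AC020922.1 on its strand, a row with a mean of 0.71 CPM. COX6B1, the widespread form, had 146 to 168 CPM in the 5 RN7SK-high libraries and 54.8 to 81.1 in the other 15.

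COX7A1, known from heart and skeletal muscle, had 804 counts over 16 libraries and 0 to 4.81% of the COX7A counts. It stood at 1.03, 1.19, 0.0960, 0.271 and 0.324 CPM in heat-clearing and 0.373, 0, 0, 1.87 and 1.15 in blood-activating libraries, where each RN7SK-high library was above the rest. In the other groups it was between 0 and 0.363 CPM. The 12 skeletal muscle markers summed to 3.84 to 4.28 CPM in the RN7SK-high libraries and to 1.73 to 7.82 in the others, so they did not separate with COX7A1. ATP2A1, at a mean of 2.32 CPM, was the highest of these 12, and ACTA1 and MYL1 had 0 counts. Heart muscle markers summed to 1.10 to 1.66 (median 1.21) against 0.353 to 2.52 CPM (median 0.608), so their median was higher in the RN7SK-high libraries while the ranges overlapped. COX6A2 and COX7B2 were at 0, and the 22 counts of COX8C came mostly from spleen-strengthening 05 with 12.

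Genes of the wider pathway gave no edgeR call in the treatment comparisons either. Over the 9 lists of assembly factors, other subunits, mitochondrially encoded subunits, regulators and the tricarboxylic acid cycle, edgeR called 0 genes among the 4 treatments and in each of the 6 pairs, with 30 of 111 at an unadjusted p under 0.05 among the 4, against 15.4% of all rows. DESeq2 called 10 and voom 16 of the 111 tested genes of these lists among the 4 treatments, against 5.08% and 8.47% of all rows, and in 4 of the pairs each tool called 0 or 1. For spleen-strengthening against blood-activating DESeq2 called 15 and voom 31, against 7.80% and 19.8% of all rows, and for yin-nourishing against blood-activating 11 and 36, against 4.26% and 16.8%. By list, the counts at an unadjusted p under 0.05 were 4 of 11 other subunits and carriers, 2 of 19 complex I assembly factors, 2 of 4 for complex II, 3 of 6 for complex III, 5 of 25 for complex IV, 2 of 4 for complex V, 5 of 13 mitochondrially encoded subunits, 5 of 16 regulators and 2 of 13 genes of the tricarboxylic acid cycle. Of the 13 mitochondrially encoded subunits, 10 were below in RN7SK-high libraries within both groups and 0 above, against 10% and 12.3% of all rows. MT-CO2, a core subunit of complex IV with its copper centre, ran from 11424 to 18101 CPM there and from 24425 to 41188 in the others, while the nuclear complex IV sum was higher in the same 5 libraries. That sum weighs abundant subunits most and leaves out NDUFA4, and 3 of the 11 tested nuclear complex IV subunits were below there.

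Assembly factors were mixed in these libraries, where 12.3% of all rows were above and 10% below: 2 above and 5 below of 19 for complex I, 1 and 0 of 4 for complex II, 2 and 1 of 6 for complex III, 7 and 6 of 25 for complex IV, and 1 and 1 of 4 for complex V. UQCC2, of complex III assembly, ran from 11.5 to 20.7 CPM against 2.22 to 5.63, and SDHAF2, which helps to attach the flavin of SDHA, from 21.7 to 31.3 against 10.8 to 18.3. COA6, which serves copper delivery to complex IV, was below within both groups at 6.13 to 6.68 against 6.55 to 15.5. Among the subunits outside the symbol rule, CYC1, which encodes cytochrome c1, had 111 to 153 CPM against 59.0 to 78.9, COX4I1 27.5 to 43.0 against 10.3 to 15.7, and COX7A2L 31.7 to 37.4 against 44.3 to 68.8.

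By the smallest p in the test among the 4 treatments, DMAC2 and TMEM126B led the complex I factors, SDHAF1 was second for complex II, BCS1L for complex III and COX19 for complex IV. FMC1 and ATPAF2 led complex V, and MT-ND3 and MT-ATP8 the mitochondrially encoded subunits. The adjusted p of these 9 genes in edgeR was between 0.196 and 0.280. NDUFA4L2, a relative of NDUFA4, stood at 0 to 0.617 CPM, and all 5 yin-nourishing libraries were at 0 counts (adjusted p = 0.173 in edgeR).

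Of the 16 regulators of mitochondrial biogenesis, 5 were above and 3 below, again against 12.3% and 10% of all rows. ESRRA, a nuclear receptor that acts with PGC-1 coactivators, had 27.4 to 35.01 CPM against 6.19 to 13.5, and PPRC1, a relative of PGC-1alpha, 35.5 to 50.3 against 19.6 to 29.1. GABPA, the DNA-binding chain of GABP, was below with 54.9 to 74.4 against 95.4 to 120.4, and YY1 with 93.3 to 105.4 against 119 to 158. NRF1 overlapped, at 6.56 to 9.10 against 5.47 to 10.1 CPM. In the tricarboxylic acid cycle 1 gene of 13 was above and 4 below, against the same shares, and MDH2, which makes oxaloacetate, stood at 98.8 ± 23.8, 73.6 ± 10.96, 76.1 ± 8.21 and 103 ± 16.9 CPM in heat-clearing, spleen-strengthening, yin-nourishing and blood-activating libraries (SD, n = 5; edgeR adjusted p = 0.182).

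Some rows can share reads with other rows. SDHA has 3 pseudogene rows whose counts came to 19.6 to 49.3% (median 33.8%) of its own, the only subunit where that median reached 10%. NDUFB2 overlaps BRAF, and NDUFB8 overlaps HIF1AN, on the other strand, and NDUFS3 overlaps PTPMT1 and CELF1. NDUFB9, at a mean of 32.8 CPM, overlaps MTSS1 (22.2 CPM) and TATDN1 (13.6 CPM) on the other strand. ATP5PD, at 48.0 CPM, overlaps KCTD2 (25.9 CPM) on the other strand. ATP5PF with GABPA and NDUFB3 with FAM126B are further cases, and the list is not complete. How the counting used strand was not given in the sources used here, so reads of such partners cannot be told apart.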

How the data were processed

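Total RNA was depleted of ribosomal RNA and made into directional libraries, per the labels' protocols. HISAT2, StringTie and hg38 are named in the submitters' processing notes, without versions. Annotation, strand setting and any handling of mouse reads were not given in the sources used here. Deposited values are raw counts per gene and sample, in 60656 rows, not normalised by the authors.

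TMM factors (trimmed mean of M-values) scaled the libraries, and edgeR 4.0.16 (robust quasi-likelihood, R 4.3.3) was fitted over all 20 samples, after edgeR's default filter (minimum count 10, 24790 rows). P-values were adjusted by Benjamini-Hochberg over all rows, with a threshold of 0.05. DESeq2 1.42.0 and voom with quality weights (limma 3.58.1) were alternatives, with other normalisations, filters, covariates and left-out libraries. Levels, lengths, GC and overlaps used GENCODE 29 (GRCh38), where all 82 genes matched by symbol. Named subunits were those with the smallest p overall and per pair, the highest and lowest per kilobase, the core subunits, tissue-restricted pairs and the largest RN7SK differences. The values of 1 subunit are not reported here. Subunits, lists and markers were chosen with earlier results of these data known. Scripts were tested on simulated data, and no 2 libraries of the same treatment agreed within sampling noise.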

Additional observations from a re-analysis of the deposited data

Results flagged for a closer look

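In 188 sets of 5 libraries (the subunits named, by treatment) 5 held a library far from the other 4, and chance flags about 1 in 20 such sets. NDUFA12 stood at 26.6 CPM in heat-clearing 03, with the next library at 17.6. NDUFA13 stood low in spleen-strengthening 06, at 3.35 CPM with the next at 5.74, and NDUFB2 in spleen-strengthening 02, at 7.32 with the next at 10.2. NDUFA10 was low in yin-nourishing 10, at 24.0 CPM with the next at 31.4. SDHA was high in yin-nourishing 01, at 28.7 CPM with the next at 22.1, and its pseudogene rows limit that value. None of the 5 libraries is RN7SK-high.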

How the results depend on the processing

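The numbers in sample titles showed little sign of pairing the samples. Of 12 same-numbered pairs 1 had deviations correlated above 0.1 (range -0.045 to 0.17), and 2 of 18 samples with a partner correlated best with their own number. Low correlations cannot exclude a pairing, because differences between libraries within a group, such as those in RN7SK, can hide it. With a replicate block 0 subunits were called in the 4-treatment test and every pair, and NDUFS1 between spleen-strengthening and yin-nourishing turned to -0.0851 on the log2 scale. Subunits called among the 4 treatments were 0 in edgeR, 12 in DESeq2, 19 in voom and 0 to 5 over the 20 fits that leave out 1 library (5 without heat-clearing 03, where 378 of 25660 rows were called). For spleen-strengthening against blood-activating they were 0, 14, 34 and 0 to 12 (3 without heat-clearing 03, against 311 of 25660 rows, and 12 without blood-activating 04, against 2002 of 25619), and for yin-nourishing against blood-activating 0, 12, 28 and 0 to 3 (3 without blood-activating 04, against 361 of 25619 rows). Heat-clearing 03 and blood-activating 04 are not RN7SK-high, so leaving either out raised the RN7SK-high share of its group. Heat-clearing 03 lies in neither group of the spleen-strengthening and blood-activating pair, and why the calls changed was not tested. In the other pairs no setting called a subunit.

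The median log2 fold change of the subunits was 0.0214 without RN7SK-high libraries and 0.0175 with the GC slope of each library as a term for heat-clearing against spleen-strengthening. For spleen-strengthening against blood-activating it was -0.1101 without RN7SK-high libraries, -0.0777 with a term for them and -0.0824 with the GC slope, and for yin-nourishing against blood-activating 0.0398 with the term and 0.0436 with the GC slope. For spleen-strengthening against yin-nourishing it lay between -0.1455 and -0.0781 over 13 other settings and between -0.169 and -0.1123 over the leave-one-out fits. The subunits above and below in RN7SK-high libraries numbered 24 to 28 and 18 to 21 when 1 of the 10 libraries was left out, a choice added after seeing the data, as was the median coding length.

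Of 1383 refitted values of 42 named subunits, 49 were classed as stronger than in the main fit, in 22 subunits. Another 32 changed sign, in 17 subunits. Without RN7SK-high libraries these were ATP5F1A (-0.2547), COX7B (-0.1927), COX7C (-0.0048) and NDUFS5 (-0.1945) for yin-nourishing against blood-activating, COX8A (-0.0060), NDUFS7 (-0.0911), SDHA (-0.0352), UQCRC1 (-0.0474) and UQCRFS1 (-0.0734) for heat-clearing against spleen-strengthening, COX7A1 (6.5738, where blood-activating 04 and 06 have 0 counts, so the fitted value is no bound) and NDUFS6 (0.2289) for spleen-strengthening against blood-activating, and ATP5MGL (0.0490) for heat-clearing against blood-activating. With a term for these libraries they were, in the same pairs, ATP5F1A (-0.1139), COX7B (-0.0858), NDUFS5 (-0.1543), NDUFS7 (-0.0315), COX7A1 (2.0846) and, for spleen-strengthening against blood-activating, COX6B1 (0.0022). With the GC slope they were, in the same pairs, ATP5F1A (-0.0736), COX7B (-0.1074), NDUFS5 (-0.1793), COX8A (-0.1296), NDUFS7 (-0.1535), UQCRC1 (-0.0265), UQCRFS1 (-0.0038), and, for spleen-strengthening against blood-activating, ATP5PD (0.0142), COX6B1 (0.1495), COX7A1 (1.8427), NDUFS8 (0.0425) and NDUFV1 (0.0148). NDUFS1 between spleen-strengthening and yin-nourishing ran from -0.0233 (without spleen-strengthening 08) to 0.0982 over the leave-one-out fits. Depth limits ATP5MGL, COX7A1 and COX8C, which have few counts.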
